A study of Homo sapiens with 12 samples.

Results

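CAR-knockout (KO, labelled hCAR-KO) HepaRG cells given CITCO were compared with wild-type (WT) HepaRG cells given CITCO, to ask how the levels reached under a CAR agonist differ when CAR is disrupted. The 4 libraries are the 2 KO CITCO and 2 WT CITCO libraries of a series of 12, which also holds 2 libraries each of KO and WT cells under phenobarbital (PB) and under the vehicle DMSO. All 12 come from HepaRG, a human hepatoma line that can mature into hepatocyte-like and biliary-like cells. Of 15822 deposited loci, the 15792 that reached 1 CPM (a normalized read count) in 2 or more of the 12 libraries were tested. The sources used here give no dose, exposure time or position of the edit, and do not say whether the KO cells are 1 clone. The labels do not state that duplicates are separate cultures; a p-value here therefore reflects the spread of libraries alone, possibly a technical one.

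CAR, the constitutive androstane receptor encoded by NR1I3, is a nuclear receptor of the liver that moves to the nucleus when drugs such as PB are present, pairs with RXRA and switches on genes that oxidise, conjugate and export foreign compounds. Its best-known human target is CYP2B6. PXR, encoded by NR1I2, is a related receptor that shares many targets with CAR, CYP3A4 foremost. CITCO is a synthetic compound that binds human CAR directly and is used in place of PB, which acts on CAR without binding it.

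Levels are deposited CPM, which carry the authors' normalization factors, and the differences are KO minus WT of log2(CPM + 0.5). The added 0.5 makes the differences of low loci smaller than they are. A locus is called when limma's Benjamini-Hochberg adjusted p is under 0.05. Read from the steps between low values, which are few in the KO columns, the depth in units of 1000000 reads was about 55.2 and 58.1 in KO CITCO libraries and 59.3 and 65.0 in WT CITCO libraries, so that 1 read was worth about 0.0155 to 0.0181 CPM. Albumin took 4.49 to 4.59% of the signal in KO CITCO and 10.6% in WT CITCO libraries, and mitochondrially encoded transcripts 7.71 to 7.75% in KO CITCO against 10.6 to 11% in WT CITCO libraries. Scaling each library to its total instead moves the median difference over all loci to 0.23, from -0.003 with the deposited values.

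Hepatocyte markers were present in both genotypes, with 13 of 14 in the table. Their summed level was 70330 and 70990 CPM in KO CITCO libraries, against 147400 and 147300 CPM in WT CITCO libraries; 5 were called higher and 7 lower in KO cells. Most of that gap is albumin: without ALB, a choice made after the values were seen, the other 12 summed to 29840 and 29640 CPM in KO CITCO against 33950 and 33800 CPM in WT CITCO libraries. Markers of other cell types moved too. Of 12 biliary markers 5 were in the table, 2 higher and 2 lower, and their sum was 113 and 108 CPM in KO CITCO against 468 and 473 CPM in WT CITCO libraries. The direction of that sum rested on KRT19. Without it the other 4 summed to 44.9 and 44.6 CPM in KO CITCO against 34.4 and 35.2 CPM in WT CITCO libraries. Most of this remainder was SPP1, which was higher (32.8 and 33.1 CPM in KO CITCO, 17.9 and 18.3 CPM in WT CITCO). SOX9 was lower, as KRT19 was (5.41 and 5.12 CPM in KO CITCO, 10.5 and 10.6 CPM in WT CITCO). The 7 mesenchymal or stellate markers in the table, of 12, summed to 290 and 297 CPM in KO CITCO against 134.5 and 138 CPM in WT CITCO libraries, with 5 higher and 1 lower. All 4 proliferation markers were higher, with a sum of 441 and 461 CPM in KO CITCO against 180 and 183 CPM in WT CITCO libraries. Of the endothelial markers 3 of 8 and of the leukocyte markers 1 of 8 (CD14, 6.05 and 6.4 CPM in KO CITCO, 6.65 and 5.14 CPM in WT CITCO) were in the table; the others are not analysed here. In such bulk libraries fewer cells of a type and less RNA per cell cannot be told apart, and the part of these markers in the results below was not tested.

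Under CITCO, 9324 loci were called between the genotypes, 59.0% of those tested, and 9916 had an unadjusted p under 0.05. Of these calls 4622 were higher in KO cells (29.3% of the loci tested) and 4702 lower (29.8%). At least 2-fold higher were 840 loci (5.32%) and at least 2-fold lower 678 (4.29%). With every library scaled to its total the split was 8090 higher and 2511 lower, and with a total that leaves out albumin and mitochondrial transcripts 5800 higher and 3695 lower. The counts of list members below are to be read against these shares.

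NR1I3 itself had 9.63 and 10.7 CPM in KO CITCO cells, against 9.70 and 9.33 CPM in WT CITCO cells. The groups overlap, and the difference was not called (log2 0.091, 95% interval -0.093 to 0.28, limma adjusted p = 0.388; with total scaling 0.33, adjusted p = 0.00294). Since the labels do not place the edit, the transcript level checks nothing about the genotype. RXRA, the partner of CAR and PXR, had 90.6 and 85.9 CPM in KO CITCO against 125 and 127 CPM in WT CITCO cells (log2 -0.51). NR1I2 had 24.4 and 24.3 CPM in KO CITCO against 29.5 and 27.9 CPM in WT CITCO cells (log2 -0.23, adjusted p = 0.00492; 0.018 and uncalled with total scaling, and adjusted p = 0.0608 without WT CITCO 1). Of 14 nuclear receptor genes 9 were lower and 1 higher (median -0.31; 4 and 4 with total scaling). Among the lower ones HNF4A, a regulator of hepatocyte genes, fell by 0.90 and NR5A2, which drives bile acid genes, by 0.90, while AHR, the receptor for dioxins, rose by 0.28.

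CYP2B6 showed the largest fall of all called loci whose mean reached 10 CPM in 1 of the groups. Its level was 17.4 and 16.1 CPM in KO CITCO libraries, against 435 and 424 CPM in WT CITCO libraries. Both KO values lay far under both WT values, a mean of 16.8 ± 0.867 CPM in KO CITCO and 430 ± 7.35 CPM in WT CITCO cells (SD, n = 2 each), 25.6-fold lower (log2 -4.64, SE 0.058, limma adjusted p = 4.37e-20). Under DMSO the difference was smaller, with 10.2 and 8.95 CPM in KO and 35.2 and 37.1 CPM in WT libraries (log2 -1.86), and under PB smaller again, with 230 and 226 CPM in KO and 442 and 447 CPM in WT libraries (-0.96). The pseudogene CYP2B7P, which lies next to CYP2B6 and shares sequence and so possibly reads with it, had 7.73 and 7.32 CPM in KO CITCO against 42.0 and 39.5 CPM in WT CITCO libraries (log2 -2.36). Under DMSO it was uncalled (-0.16, adjusted p = 0.135).

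CYP3A4, the most abundant drug-oxidising P450 of adult liver, went the other way. It had 2546 and 2544 CPM in KO CITCO libraries, against 818 and 807 CPM in WT CITCO libraries, 3.13-fold higher in KO cells (log2 1.65, SE 0.035, limma adjusted p = 3.51e-17). Under DMSO the KO libraries held 1080 and 1101 CPM and the WT libraries 242 and 232 CPM (log2 2.20), so that the groups did not overlap under either treatment. The 300 bases around each start site are printed for CYP2B6 and CYP3A4, the pair that moved in opposite directions, from RefSeq GRCh38.p14 (250 bases before to 50 after the start, CYP2B6 at chr19:40991032-40991331 on the plus strand, CYP3A4 at chr7:99784135-99784434 on the minus strand).
CYP2B6: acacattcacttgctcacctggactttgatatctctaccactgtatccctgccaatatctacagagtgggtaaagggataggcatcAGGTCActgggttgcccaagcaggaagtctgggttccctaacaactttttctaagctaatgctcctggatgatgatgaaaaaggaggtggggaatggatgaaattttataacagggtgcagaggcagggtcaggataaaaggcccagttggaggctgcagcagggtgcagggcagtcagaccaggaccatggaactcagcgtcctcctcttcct
CYP3A4: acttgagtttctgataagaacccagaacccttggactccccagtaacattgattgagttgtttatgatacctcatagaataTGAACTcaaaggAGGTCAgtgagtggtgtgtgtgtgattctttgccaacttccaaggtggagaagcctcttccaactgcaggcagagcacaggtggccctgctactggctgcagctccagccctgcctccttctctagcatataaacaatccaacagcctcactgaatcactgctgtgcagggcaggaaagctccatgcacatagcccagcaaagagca
Capitals mark nuclear receptor half-sites. In CYP3A4 they form the everted repeat to which PXR and CAR are known to bind, TGAACT and AGGTCA 6 bases apart, at -169 to -152 from the start. In CYP2B6 a single AGGTCA stands at -164 to -159; the enhancer through which CAR is known to act on this gene lies farther upstream, outside the window. Searched on both strands, the everted repeat was in 3 of 34943 promoter windows of this length (0.00859%), AGGTCA in 13.8% and AGTTCA, the other half-site, in 10.5%. A match is a description of letters and not a measured binding site.

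Of 13 tested P450 genes and partners known to be induced through CAR and PXR, 10 were lower and 3 higher under CITCO (median -0.34; 6 lower and 3 higher with total scaling, median -0.088). Besides CYP2B6, CYP2C8 had 46.5 and 47.7 CPM in KO CITCO against 257 and 253 CPM in WT CITCO cells (log2 -2.42). CYP2A13, a minor nicotine-oxidising enzyme nearly identical in sequence to CYP2A6, had 0.932 and 0.791 CPM in KO CITCO against 3.87 and 4.12 CPM in WT CITCO cells (-1.72). CYP3A5 (-0.74), the electron donor POR (-0.40) and ALAS1 (-0.34), which starts the making of heme, were lower by less than 2-fold, ALAS1 uncalled with total scaling (-0.088). CYP2A6, which oxidises nicotine, had 116 and 112 CPM in KO CITCO against 137 and 142 CPM in WT CITCO cells (-0.29; -0.040 and uncalled with total scaling). The fetal form CYP3A7 differed by -0.20 (0.047 and uncalled with total scaling), a call lost without KO CITCO 1 (adjusted p = 0.113), KO CITCO 2 (0.0875) or WT CITCO 1 (0.239). CYP3A43 was the third member that rose (1.07), beside CYP3A4 and CYP2C18 (0.11), whose call was lost without KO CITCO 2 (adjusted p = 0.215), WT CITCO 1 (0.0689) or WT CITCO 2 (0.182).

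Whether the genotype difference under CITCO differs from that under DMSO was tested directly, and 53 loci passed, 0.336% of those tested: 17 with a more positive difference under CITCO (0.108%) and 36 with a more negative one (0.228%). At an unadjusted p under 0.05 there were 1996. Among the 53 are 8 copies of RNA5-8S5, a ribosomal RNA gene, whose reads cannot be told apart. Of the 36, 27 were raised by CITCO in WT cells and 9 also in KO cells, by the same limma fit. The count was 23 without KO CITCO 1, 25 without WT CITCO 2, 34 without KO CITCO 2, WT CITCO 1 or KO DMSO 1, and 491 without WT DMSO 2; 22 of the 53 were called whichever of the 8 libraries was left out.

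**Figure D1:**
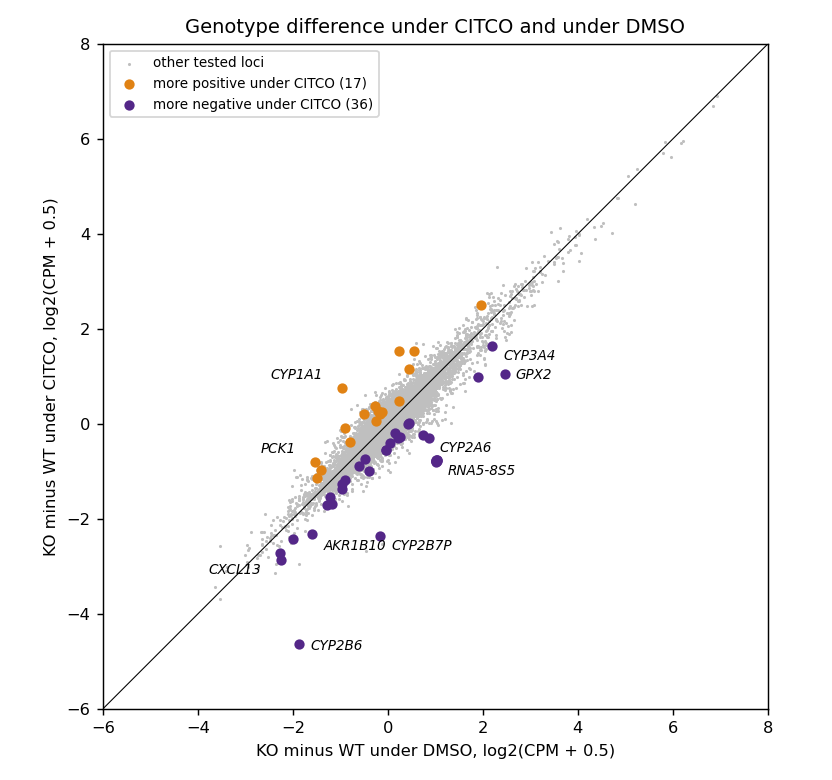
KO minus WT difference of each tested locus under CITCO (vertical axis) and under DMSO (horizontal axis), both on the log2(CPM + 0.5) scale, with the line of equal differences. Most loci lie along the line, the 36 purple loci lie under it with CYP2B6 lowest, and the 17 orange ones over it.

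CYP2B6 had the largest of these differences (log2 -2.78, 95% interval -2.95 to -2.60, limma adjusted p = 3.52e-13), followed by CYP2B7P (-2.20). CITCO raised CYP2B6 in WT cells by 3.55 and in KO cells by 0.78, both called. GPX2, a glutathione peroxidase of the gut and liver that reduces hydrogen peroxide, had 54.8 and 52.6 CPM in KO CITCO against 26.4 and 24.8 CPM in WT CITCO cells. Under DMSO it had 45.2 and 44.0 CPM in KO and 7.36 and 7.95 CPM in WT cells. It was higher in KO cells under both, by 1.05 under CITCO and 2.47 under DMSO (difference -1.41, limma adjusted p = 3.19e-08). CYP2A6 changed sides: it was lower in KO cells under CITCO and higher under DMSO, where it had 113 and 108 CPM in KO and 59.1 and 61.8 CPM in WT cells (log2 0.86; difference -1.16, adjusted p = 9.49e-09). AKR1B10, an aldo-keto reductase, had 225 and 231 CPM in KO CITCO against 1132 and 1139 CPM in WT CITCO cells (-2.31), with -1.59 under DMSO (difference -0.72, adjusted p = 5.07e-08). These 5 loci were the ones called in every leave-out and also when the prior variance was held constant rather than following expression, a setting that left 6 calls in all.

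**Figure D2:**
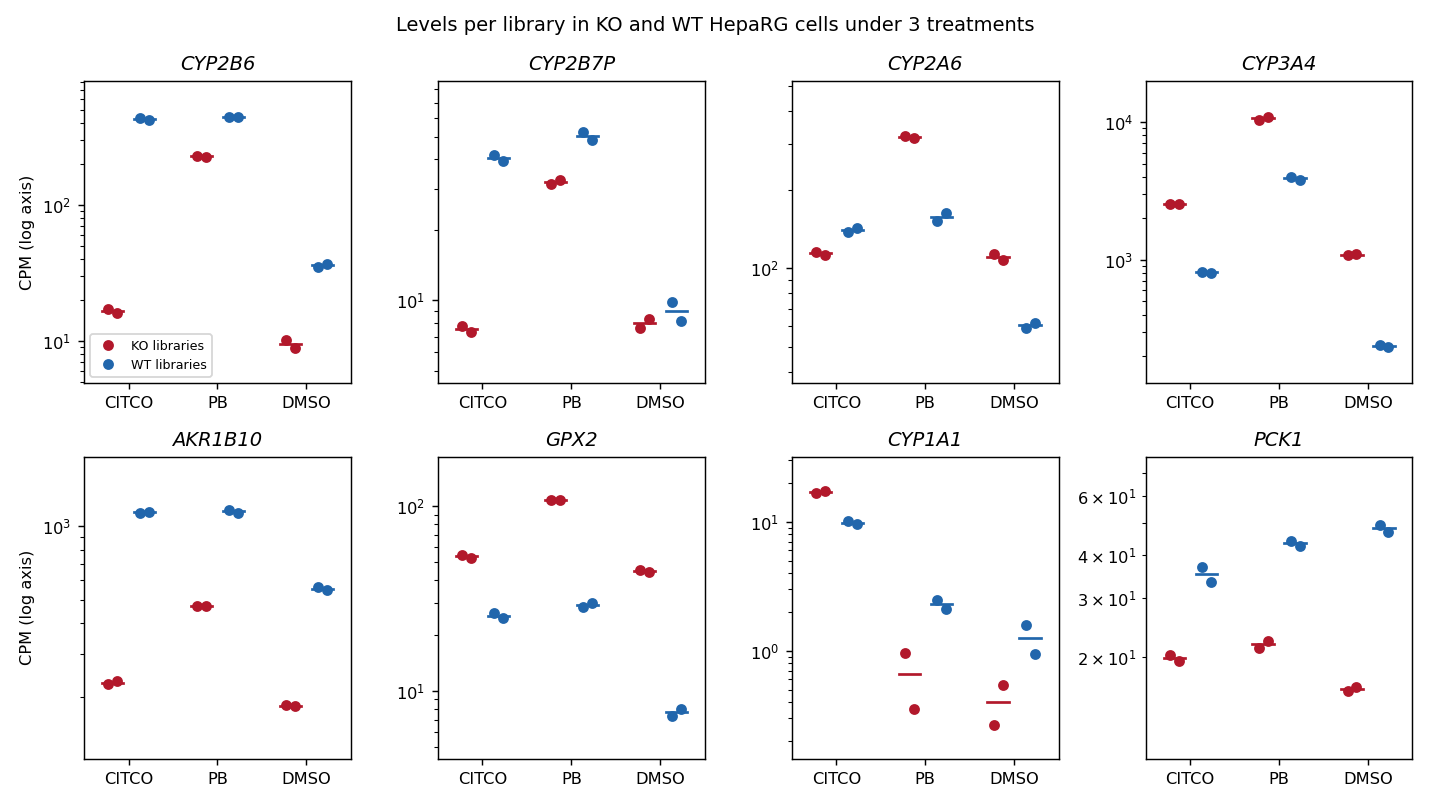
CPM per library (points, log axis) and mean of the duplicates (bars) of 8 genes in KO (red) and WT (blue) cells under CITCO, PB and DMSO. For CYP2B6, CYP2B7P and AKR1B10 the KO values lie under the WT values with CITCO, for CYP3A4 and GPX2 over them under all 3 treatments, and for CYP2A6 and CYP1A1 the order of the genotypes differs between CITCO and DMSO.

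Smaller differences of the same sign were found for other enzymes of drug handling. POR had 239 and 225 CPM in KO CITCO against 304 and 308 CPM in WT CITCO cells, and 219 and 213 CPM in KO against 202 and 215 CPM in WT cells under DMSO (difference -0.45, limma adjusted p = 0.00181). CYP3A4 (-0.55), AKR1C2 (-0.50), an aldo-keto reductase of steroids, UGT2B4 (-0.41), which adds glucuronic acid to bile acids, and EPHX1 (-0.33), which opens epoxides, also passed. CYP2C8 passed (-0.43) but not without KO CITCO 1 (adjusted p = 0.0514). With a constant prior variance none of these 6 passed (adjusted p = 0.0741 to 0.191). CXCL13, a chemokine that draws B cells, had 71.5 and 78.7 CPM in KO CITCO against 557 and 541 CPM in WT CITCO cells (-2.86, against -2.26 under DMSO; difference -0.61, adjusted p = 0.000555). With a constant prior variance CXCL13 did not pass either (limma adjusted p = 0.127).

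In the other direction CYP1A1, which oxidises polycyclic hydrocarbons under the control of AHR, had 16.9 and 17.3 CPM in KO CITCO against 10.2 and 9.57 CPM in WT CITCO cells. Under DMSO it had 0.268 and 0.540 CPM in KO and 1.58 and 0.944 CPM in WT cells. CITCO raised it by 4.30 in KO and 2.58 in WT cells (difference 1.72, 95% interval 1.06 to 2.38, limma adjusted p = 0.0153). That call was lost on leaving out any of 6 libraries, with adjusted p from 0.0581 (without WT DMSO 1) to 0.132 (without KO DMSO 1), and held without KO DMSO 2 and without WT DMSO 2. CYP1A2, its close relative, was uncalled (2.35 and 2.42 CPM in KO CITCO, 3.14 and 2.30 CPM in WT CITCO; difference 0.83, adjusted p = 0.354). PCK1, which commits carbon to glucose, had 20.3 and 19.5 CPM in KO CITCO against 37.0 and 33.3 CPM in WT CITCO cells. It was lower in KO cells by 0.80 under CITCO and by 1.54 under DMSO (difference 0.74, adjusted p = 0.000877). That call held in all 8 leave-outs but not with a constant prior variance (limma adjusted p = 0.0583).

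The same windows show what stands at the start of GPX2 (chr14:64942696-64942995, minus strand) and of CYP1A1 (chr15:74725479-74725778, minus strand), again from RefSeq GRCh38.p14.
GPX2: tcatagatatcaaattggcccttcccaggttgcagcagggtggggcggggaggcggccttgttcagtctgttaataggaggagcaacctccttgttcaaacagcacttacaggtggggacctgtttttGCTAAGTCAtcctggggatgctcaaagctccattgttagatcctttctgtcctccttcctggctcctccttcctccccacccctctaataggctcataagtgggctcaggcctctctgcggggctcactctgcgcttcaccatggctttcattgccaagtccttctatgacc
CYP1A1: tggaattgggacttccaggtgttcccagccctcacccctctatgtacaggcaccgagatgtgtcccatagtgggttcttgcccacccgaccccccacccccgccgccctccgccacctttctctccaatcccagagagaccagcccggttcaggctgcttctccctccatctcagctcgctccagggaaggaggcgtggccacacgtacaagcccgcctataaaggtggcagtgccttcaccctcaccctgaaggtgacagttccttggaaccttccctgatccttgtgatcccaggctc
Capitals in GPX2 mark the core of an antioxidant response element (TGACNNNGC, read on the opposite strand) at -122 to -114, the kind of site that NRF2 is known to bind. The CYP2B6 window printed above also holds this core, at -41 to -33 and not in capitals there. That core was in 13.3% of all windows and in 7 of 28 windows matched to the 46 symbols of the 53 loci. The xenobiotic response element core to which AHR binds (TNGCGTG, both strands) was not in the CYP1A1 window, in 5.50% of all windows and in 0 of the 28. The everted repeat was in 1 of the 28 (CYP3A4).

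Conjugation and transport genes were mostly lower in KO cells under CITCO. The list medians were alike without CITCO: for phase II enzymes -0.93 under DMSO and -0.86 under PB. For uptake transporters they were -0.92 and -0.79, and for efflux transporters -0.67 and -0.52. Of 15 tested phase II enzymes 13 were lower and 1 higher, with 8 at least 2-fold lower (median -1.06; also 13 lower and 2 higher with total scaling). GSTA1, a glutathione transferase, had 386 and 382 CPM in KO CITCO against 1337 and 1279 CPM in WT CITCO cells (log2 -1.77), although the GSTA genes share reads. EPHX1 had 458 and 455 CPM in KO CITCO against 1321 and 1344 CPM in WT CITCO cells (-1.54). UGT2B7 (-1.43) and UGT2B4 (-1.37) glucuronidate steroids and bile acids, while UGT1A1 (-0.51), which clears bilirubin, and the sulfotransferase SULT2A1 (-0.45) differed less. NNMT, which methylates nicotinamide, was the member that rose (0.52).

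All 12 tested uptake transporters were lower (median -0.79; 10 with total scaling). SLCO1B3, a carrier of bile acids and drugs, had 16.2 and 15.8 CPM in KO CITCO against 70.1 and 73.4 CPM in WT CITCO cells (log2 -2.13), and SLC10A1, the sodium-dependent bile acid carrier, 8.34 and 7.64 CPM in KO CITCO against 31.3 CPM in both WT CITCO libraries (-1.91). Of 14 efflux transporters 11 were lower and 2 higher (median -0.64, the same counts with total scaling). The sterol exporters ABCG8 (-2.47) and ABCG5 (-1.82) fell most. ABCC2 (-0.72), ABCB1 (-0.57) and ABCC3 (-0.43), which export drugs and their conjugates, were lower too. The bile salt pump ABCB11 had 49.5 and 46.4 CPM in KO CITCO against 25.3 and 25.9 CPM in WT CITCO cells (0.89), and the steroid transporter subunit SLC51A rose by 1.84 while its partner SLC51B fell by 1.60.

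Genes of energy metabolism separated into groups. Of 19 genes of glycolysis and the hypoxia response 17 were higher and 0 lower, 7 of them at least 2-fold (median 0.63; 18 higher with total scaling). NDRG1, a stress gene raised by low oxygen, had 993 and 960 CPM in KO CITCO against 286 and 293 CPM in WT CITCO cells (log2 1.75). ADM (1.80), a vasodilator peptide, and EGLN3 (1.57), an oxygen sensor, rose alike. ENO2, the neuronal enolase, had 13.2 and 12.7 CPM in KO CITCO against 0.433 and 0.248 CPM in WT CITCO cells (4.0). Fatty acid oxidation and ketogenesis had 16 of 20 genes lower and 3 higher (median -0.48; 13 and 4 with total scaling). ACADS, the short-chain acyl-CoA dehydrogenase, had 1.16 and 1.75 CPM in KO CITCO against 14.1 and 12.1 CPM in WT CITCO cells (-2.81). PDK4, which spares glucose in fasting, fell by 1.67 and EHHADH of peroxisomal oxidation by 1.23. ANGPTL4 (0.80), CYP4A11 (0.66) and ACSL1 (0.16) rose.

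All 12 mitochondrially encoded transcripts in the table were lower (median -0.76; 9 with total scaling). MT-CO1, a subunit of cytochrome c oxidase, had 17439 and 17312 CPM in KO CITCO against 28972 and 30183 CPM in WT CITCO cells (log2 -0.77). The ribosomal RNAs MT-RNR1 and MT-RNR2 each fell by 1.03. Of 23 tested loci for 21 genes of the urea cycle and amino acid catabolism 19 were lower and 3 higher (median -0.63). PRODH, which degrades proline, is listed as a pair of loci with differences of -1.89 and -1.86. Those that rose included ARG1 (0.98), the last step of the urea cycle, and HAL (1.75), which degrades histidine.

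Bile acid synthesis was split, with 6 higher and 8 lower of 14. CYP8B1, which makes cholic acid, had 120 and 118 CPM in KO CITCO against 42.3 and 41.8 CPM in WT CITCO cells (log2 1.49), and CYP7A1, the rate-limiting enzyme, 32.9 and 31.8 CPM in KO CITCO against 65.0 and 62.2 CPM in WT CITCO cells (-0.97). Cholesterol synthesis had 12 of 22 lower and 7 higher, a split that turned to 7 lower and 10 higher with total scaling; its regulator SREBF2 rose by 0.74. Of 13 gluconeogenesis and glycogen genes 8 were lower and 4 higher (3 and 5 with total scaling): PCK2, the mitochondrial form of PCK1, fell by 1.25, and GYS2 (1.64), the liver glycogen synthase, and G6PC (0.63), which releases glucose, rose. In lipid storage DGAT2, which makes triglycerides, had 75.0 and 71.5 CPM in KO CITCO against 273 and 274 CPM in WT CITCO cells (-1.89), while PLIN2, which coats lipid droplets, rose by 1.23.

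Secreted proteins held some of the largest differences in both directions. CRP, the acute phase protein used as a blood marker of inflammation, had 1171 and 1184 CPM in KO CITCO against 18.9 and 18.4 CPM in WT CITCO cells, 63.2-fold higher (log2 5.94, SE 0.043, limma adjusted p = 8.35e-24). Among 18 acute phase genes 9 were higher and 5 lower. APCS, a pentraxin like CRP, rose by 1.67, the copper carrier CP by 1.62 and ITIH3 by 1.36, while SERPINA1 (-0.68), C3 (-0.66), ORM2 (-0.58), ITIH4 (-0.53) and ORM1 (-0.51) fell. Haptoglobin (HP), among the most abundant transcripts, had 15042 and 14584 CPM in KO CITCO against 11141 and 10996 CPM in WT CITCO cells (0.42). Albumin had 40497 and 41352 CPM in KO CITCO against 113477 and 113538 CPM in WT CITCO libraries (ALB, -1.47).

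Growth factor and carrier genes followed the same split. IGF1, the main growth factor made by liver, had 63.0 and 61.3 CPM in KO CITCO, against 0.0181 and 0.0331 CPM in WT CITCO libraries, that is 1 and 2 reads in WT. Its fitted log2 difference of 6.90 depends on the pseudocount (8.96 with 0.1 and 5.94 with 1) and is no bound. Its binding proteins IGFBP3 (2.40), IGFBP1 (2.00) and IGFBP4 (0.99) were higher in KO cells. SERPINA7, which carries thyroid hormone, had 33.8 and 34.6 CPM in KO CITCO against 219 and 216 CPM in WT CITCO cells (-2.65). Among coagulation factors F9 (2.41), the factor missing in haemophilia B, rose and F10 (-1.25) fell, and among complement genes C9 (2.17), which forms the pore, rose and C6 (-1.04) fell. APOA1, the main protein of HDL, had 935 and 953 CPM in KO CITCO against 3508 and 3384 CPM in WT CITCO cells (-1.87). APOA4 (56.9 and 55.3 CPM in KO CITCO, 3.96 and 4.32 CPM in WT CITCO, log2 3.61) and APOA2 (1.40) rose, and APOB fell by 0.77. Coagulation factors were 4 higher and 6 lower of 13, complement genes 7 and 9 of 17, and apolipoprotein and lipoprotein genes 9 and 8 of 20; total scaling turned these to 8 and 3, 9 and 7, and 11 and 5.

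Liver transcription factors were mostly lower, 11 of 19 with 4 higher (median -0.55; 10 and 6 with total scaling). GATA4 had 11.8 and 10.1 CPM in KO CITCO against 39.4 and 38.6 CPM in WT CITCO cells (log2 -1.79). FOXA3 (-1.59), a pioneer factor, XBP1 (-1.47), which expands the secretory pathway, and KLF15 (-1.31), a fasting factor, fell as well. FOXA2 (0.34), ZHX2 (0.33), TBX3 (0.70) and ONECUT2 (0.30) were higher, ONECUT2 no longer called without KO CITCO 2 (adjusted p = 0.0928) or WT CITCO 1 (0.0738). Of 11 biliary and progenitor genes 6 were lower and 5 higher. KRT19, the keratin of bile duct cells, had 68.2 and 63.3 CPM in KO CITCO against 433 and 437 CPM in WT CITCO cells (-2.72), whereas BICC1 (1.54), an RNA-binding protein, and the mucin MUC13 (1.73) rose. The more negative difference of KRT19 than under DMSO (-0.45, limma adjusted p = 0.0303) was lost without any 1 of 7 libraries (adjusted p = 0.0660 to 0.159, and 0.246 without KO CITCO 2).

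Mesenchymal and matrix genes were mostly higher, 16 of 22 with 4 lower and 9 at least 2-fold higher (median 0.68; 18 and 2 with total scaling). DCN, a matrix proteoglycan, had 119 and 121 CPM in KO CITCO against 28.4 and 27.3 CPM in WT CITCO cells (log2 2.09), and TAGLN, an actin-binding protein of smooth muscle, 33.6 and 35.9 CPM in KO CITCO against 4.62 and 4.07 CPM in WT CITCO cells (2.87). MMP2, a gelatinase, had 14.8 and 13.4 CPM in KO CITCO against 0.470 and 0.413 CPM in WT CITCO cells (3.95). COL3A1, a fibrillar collagen, was lower (-0.47), and FN1, which hepatocytes also secrete, was lower by 0.24 with the deposited values and at 0.0086, uncalled, with total scaling. Cell cycle genes were higher in 25 of 33 cases and lower in 1, 11 of them at least 2-fold higher (median 0.56; 31 and 1 with total scaling). MKI67, which marks dividing cells, had 173 and 176 CPM in KO CITCO against 60.6 and 61.8 CPM in WT CITCO cells (1.5), and CENPE (1.55) and KIF11 (1.42) of the mitotic spindle rose alike. MCM5, a subunit of the replicative helicase, was the one that fell (-0.54).

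**Figure D3:**
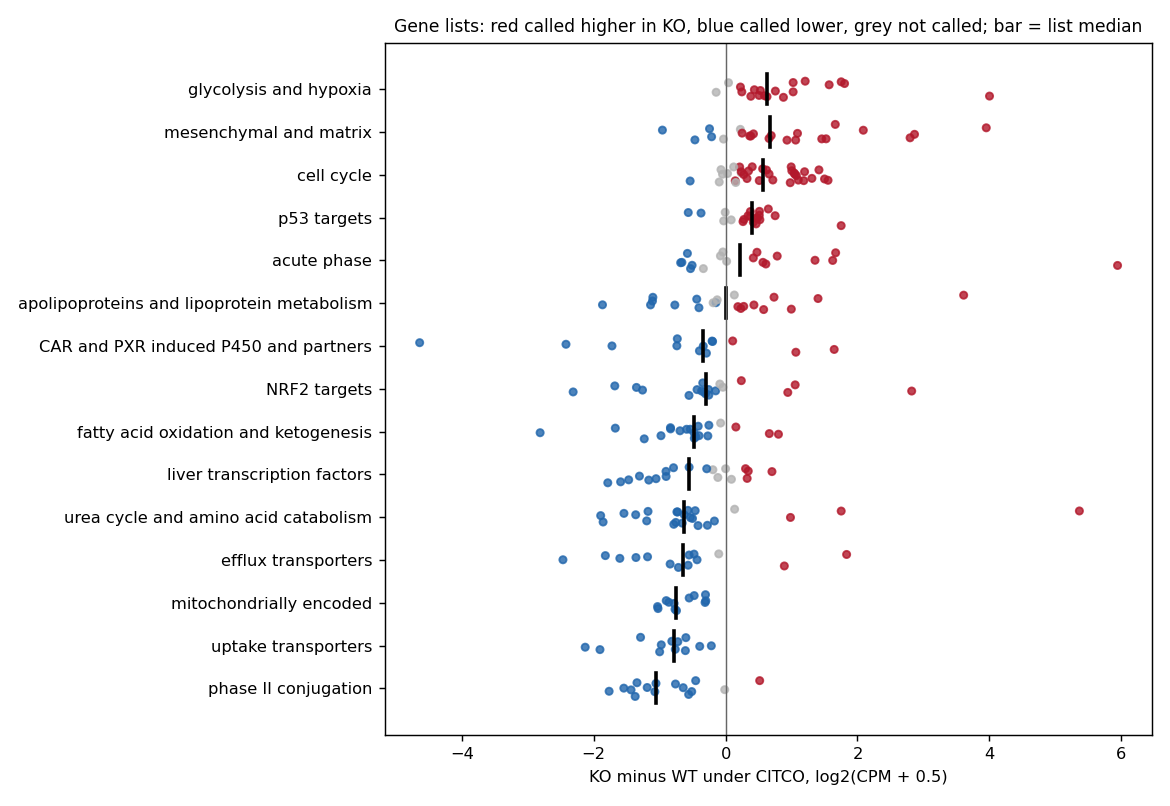
KO minus WT difference under CITCO on the log2(CPM + 0.5) scale (horizontal axis) of each tested member of 15 gene lists (rows), red where called higher in KO, blue where called lower and grey where not called, with the list median as a bar. Glycolysis and hypoxia, mesenchymal and cell cycle genes lie mostly right of 0, and phase II, uptake transporter and mitochondrial genes mostly left.

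Of 20 p53 targets 15 were higher and 2 lower (median 0.40; 18 and 1 with total scaling), most by less than 2-fold, with GDF15, a stress cytokine, at 23.1 CPM in both KO CITCO libraries against 6.79 and 6.23 CPM in WT CITCO cells (log2 1.75). Targets of NRF2, the factor that answers oxidants, were 13 lower and 4 higher of 19 (median -0.30; 8 and 6 with total scaling). AKR1B10, AKR1C2 and GSR (-1.35), which regenerates glutathione, were lower. NQO1, a quinone reductase, had 5.82 and 5.83 CPM in KO CITCO against 0.253 and 0.562 CPM in WT CITCO cells (2.82), and the cystine carrier SLC7A11 rose by 0.94. Interferon response genes were 9 higher and 6 lower of 21 (11 and 3 with total scaling), with OAS2 (1.5) and OAS3 (0.91) higher and IRF7 (-0.89) and IFIT1 (-0.71) lower. HLA-DPA1, which presents peptides to helper T cells, had 14.2 and 13.6 CPM in KO CITCO against 1.59 and 1.74 CPM in WT CITCO cells (2.74), although HLA-DRA of the same class was lower (-0.36; uncalled with total scaling and, at adjusted p = 0.0562, without WT CITCO 1).

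Outside the lists, the loci with the largest differences included genes that were nearly silent in 1 genotype. By the rule of under 0.5 CPM in both WT CITCO and at least 10 CPM in both KO CITCO libraries 9 loci were found, and 0 the other way round. The 9 included IGF1, COL6A2, EMC10, SSX4, SSX4B, MMP2, ENO2 and KRT17. Of the deposited loci 5 and 4 were at 0 in KO CITCO libraries, against 35 and 39 in WT CITCO libraries. Loci silent in KO cells may thus be missing from the deposited values, which was not tested. The 9 and 0 are therefore not to be compared. The same limit may bear on the counts of loci at least 2-fold higher and lower, and on the ranking of the largest falls. COL6A2, a chain of the microfibril collagen VI, had 60.1 and 58.1 CPM in KO CITCO against 0.0361 and 0.116 CPM in WT CITCO cells, and EMC10, a subunit of a membrane insertase, 42.6 and 37.4 CPM in KO CITCO against 0.144 and 0.198 CPM in WT CITCO cells. SSX4 and SSX4B, cancer-testis genes of the X chromosome with nearly the same sequence, had 18.7 to 19.6 CPM in KO CITCO against 0.0496 to 0.452 CPM in WT CITCO cells, and their reads cannot be told apart. CADM3, an adhesion molecule of neurons, had 138 and 134 CPM in KO CITCO against 1.84 and 1.55 CPM in WT CITCO cells (log2 5.96), and F13A1, the clot-stabilising factor XIII subunit, 39.3 and 39.1 CPM in KO CITCO against 0.668 and 0.463 CPM in WT CITCO cells (5.23). PAGE2B (5.70), a cancer-testis gene with a near-identical copy, and CEACAM20 (4.63) were also among the 12 largest.

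The 12 largest falls were led by CYP2B6. STC1, a hormone of calcium balance, had 0.507 and 0.419 CPM in KO CITCO against 12.1 and 11.8 CPM in WT CITCO cells (log2 -3.69). MAGEA11, a cancer-testis gene of the X chromosome, had 0.801 and 1.16 CPM in KO CITCO against 16.4 and 14.5 CPM in WT CITCO cells (-3.43). CYP2E1, which oxidises ethanol, had 9.60 and 10 CPM in KO CITCO against 88.0 and 87.4 CPM in WT CITCO cells (-3.10), and unlike CYP2B6 it differed by as much under DMSO (-3.40; difference 0.31, uncalled). NUGGC (-3.01), PGC (-2.95), a pepsinogen, NELL2 (-2.91), CXCL13, LRRC16B (-2.83), ACADS, KRT19 and SPP2 (-2.69) completed the list. In none of the loci named for size did the KO values overlap the WT values, which the rule for naming them required.

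**Figure D4:**
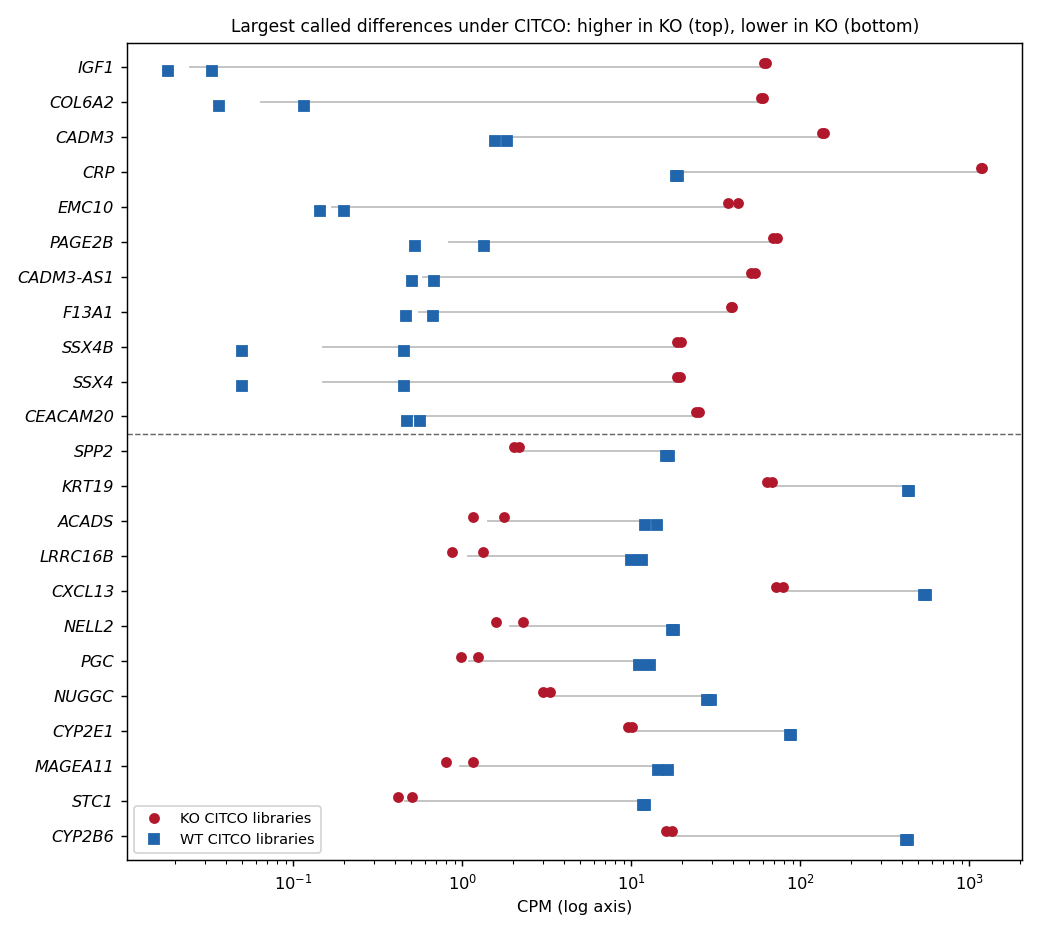
CPM (log axis) of 23 of the 24 loci with the largest called differences under CITCO, 12 of them lower, in KO CITCO libraries (red circles) and WT CITCO libraries (blue squares), with a line between the groups' geometric means. IGF1 and COL6A2 are under 0.2 CPM in both WT libraries and near 60 CPM in KO libraries; CYP2B6 is over 400 CPM in WT and under 20 CPM in KO libraries.

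Loci with large differences lay beside each other more often than their share of all placed loci, though in a minority of cases. Of the tested loci 13651 (86.4%) could be placed by symbol on RefSeq GRCh38.p14, used here only for chromosome and order. Among the 759 placed loci that were called and at least 2-fold higher, the next tested locus was also so in 15.2% of cases, against 5.56% of all placed loci. For the lower direction it was 18% against 4.37%. A run on chromosome 1 held PYHIN1, IFI16, CADM3, CADM3-AS1, APCS, OR10J6P and CRP, all at least 2-fold higher (log2 1.23 to 5.96). On chromosome 19 FAM71E1, EMC10, JOSD2, ASPDH and SYT3 formed another (1.61 to 5.91). FAM71E1 had 3.29 and 3.36 CPM in KO CITCO cells and was at 0 in all 6 WT libraries, which at 3 reads per library as the floor is at least 61-fold higher. KRT6B, KRT6C, KRT6A and KRT5, keratins of stratified epithelium, were neighbours on chromosome 12 (1.5 to 3.41), and SSX6, SSX1, SSX4 and SSX4B on the X chromosome (1.47 to 4.76). Lower runs held UGT2B17, UGT2B10, UGT2A3 and UGT2B7 on chromosome 4 (-2.47 to -1.19) and BTNL8, BTNL3, BTNL9 and TRIM7 on chromosome 5 (-2.16 to -1.14). Where a run is a gene family, its members can share reads.

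Broad stretches of chromosomes differed as well. In 260 blocks of 50 consecutive placed loci, 234 had a median difference between -0.3 and 0.3. The first 3 blocks of chromosome 8, from RPL23AP53 to POLB on the short arm, had medians of -0.97, -0.88 and -0.85, with 131 of 150 loci called lower (87.3%) and 60 at least 2-fold lower (40%). The next 6 blocks of that chromosome, from VDAC3 to TONSL, had medians of -0.19 to 0.19, with 75 of 300 loci lower (25%) and 15 at least 2-fold lower (5%). EPHX2, the soluble epoxide hydrolase, was among the lower neighbours on the short arm, with 39.6 and 39.5 CPM in KO CITCO against 215 and 217 CPM in WT CITCO cells (-2.43), and so was CLU (-2.15), a secreted chaperone. On chromosome 12 the 4 blocks from NAP1L1 to GCN1L1 had 154 of 200 loci higher (77%) and 16 lower, with medians of 0.47 to 0.52. On chromosome 10 the first pair of blocks had 71 of 100 loci lower, and on chromosome 22 the block from PRR14L to CSNK1E 35 of 50 lower, while that from SREBF2 to PANX2 had 32 of 50 higher. Some genes named earlier lie in these stretches. NUGGC opens the chromosome 8 block that ends with POLB, and SREBF2 opens the higher block of chromosome 22. The part of the stretches in the differences of single genes was not tested. In the stretches named here the block medians had the same sign under DMSO and PB, with 1 exception. It was the block from AGO2 to TONSL at the end of chromosome 8 (-0.19 under CITCO, 0.030 under DMSO and -0.035 under PB). Elsewhere medians near 0 could differ in sign, as from SLC6A12 to C12orf57 on chromosome 12 (0.026 under CITCO, -0.056 under DMSO).

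**Figure D5:**
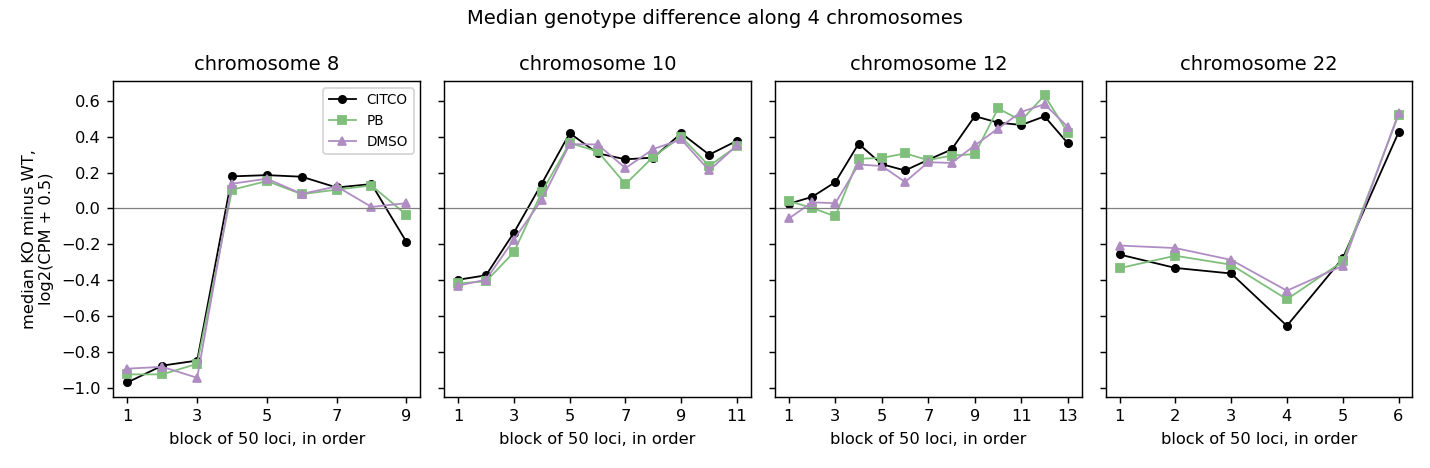
Median KO minus WT difference on the log2(CPM + 0.5) scale (vertical axis) in consecutive blocks of 50 loci (horizontal axis) along chromosomes 8, 10, 12 and 22, under CITCO (black), PB (green) and DMSO (purple). The first 3 blocks of chromosome 8 lie between -0.97 and -0.85 under CITCO, and the next ones near 0, under all 3 treatments.

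The genotype difference under CITCO was set beside those under DMSO and PB, which share no library with it. Under DMSO 9106 loci were called (57.7%), 4462 higher (28.3%) and 4644 lower (29.4%), and under PB 9214 (58.3%), 4646 higher (29.4%) and 4568 lower (28.9%). Of the loci called under CITCO 81.0% were also called under DMSO, which are 83.0% of the DMSO calls, 7534 of the 7557 in the same direction. The correlation across loci was r = 0.944 with the differences under DMSO and 0.946 with those under PB, a description over 15792 loci that are not independent. CRP (5.83) and IGF1 (6.92) differed by about as much under DMSO as under CITCO. Several list medians were also near those under CITCO. Under DMSO and PB they were 0.62 and 0.74 for glycolysis and hypoxia, and -0.78 and -0.84 for mitochondrially encoded transcripts. Mesenchymal and matrix genes had 0.76 and 0.80. The cell cycle median lay farther off, at 0.77 under DMSO and 0.93 under PB against 0.56 under CITCO. The P450 genes and partners induced through CAR and PXR had -0.27 under DMSO but 0.34 under PB. The 23 loci called in opposite directions under CITCO and DMSO included the 8 copies of RNA5-8S5, CYP2A6, ADH4 and CYP1A1. The RNA5-8S5 locus with the largest difference had 3.20 and 4.56 CPM in KO CITCO against 6.47 and 7.71 CPM in WT CITCO cells (log2 -0.80), and was 1.02 higher in KO cells under DMSO; its difference (-1.82, limma adjusted p = 0.00678) was lost without KO CITCO 1 (0.0926), KO DMSO 2 (0.0636) or WT CITCO 2 (0.0763). The authors' deposited table named for KO CITCO against WT CITCO correlated with r = 0.194 with the differences of levels given here and with r = 0.994 with the CITCO minus DMSO differences, over 14161 loci.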

How the data were processed

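Per the labels' protocols, RNA from a column kit went into Illumina libraries. Per the submitters' processing notes, the tools were edgeR 2.12, Cuffdiff 2.1.1, Cufflinks 2.1.1, Bowtie 1.0.0 and TopHat2 2.0.10, whose order is not given; both GRCh38 and GRCh37 are named, and coordinates of loci are therefore not printed. The authors deposited CPM for 15822 loci, a signal scaled with normalization factors, since library totals were 0.900 to 1.11 in units of 1000000. Values were whole multiples of 1 read within 0.001 reads in 100% of cases, with about 49.3 to 66.5 times 1000000 reads per library. In the KO columns too few values lie near 1 read to take the reads as recovered, so their depths are estimates and no count test was run for KO against WT. A locus can span several genes or copies. Strandedness is not given in the sources used here, so antisense partners cannot be told apart from their genes.

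Loci with at least 1 CPM in 2 libraries were tested with limma 3.58.1 (R 4.3.3) on log2(CPM + 0.5), a prior variance that follows the mean level and 1 mean per group (6 groups, 12 libraries), Benjamini-Hochberg adjusted over 15792 loci. The code was tested on simulated data. Of the tables of comparisons that the authors deposited (log2 fold change and p-value columns), 2 were read for a correlation. Members and the 39 gene lists were chosen with earlier results of these data known. Named were drug metabolism genes, the 12 largest called differences per direction with a mean of 10 CPM or more and no overlap, the most abundant loci, up to 8 differences from DMSO per direction, up to 4 members per list and those against its majority, and loci near 0 in 1 genotype. KRT17, genes of chromosome runs and blocks, and other loci outside this rule were chosen after their values were seen. A few loci that these rules name are not reported here. Alternatives were other pseudocounts, filters and scalings, a fit of only the libraries compared, a constant prior variance, a replicate block and leaving out each library.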

Additional observations from a re-analysis of the deposited data

Results flagged for a closer look

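The genotype difference under CITCO differed from that under DMSO, by limma's test of the difference itself, for 27 of the 273 named loci. Over all 15792 tested loci it did so for 53 (0.336%). Some of the 27 were named because they passed this test, so their number is no result about the named loci. The difference was more negative under CITCO for CYP2B6 (log2 -2.78), CYP2B7P (-2.20), GPX2 (-1.41), CYP2A6 (-1.16), AKR1B10 (-0.72), CXCL13 (-0.61), CYP3A4 (-0.55), AKR1C2 (-0.50), KRT19 (-0.45), POR (-0.45), CYP2C8 (-0.43), UGT2B4 (-0.41) and EPHX1 (-0.33). Of the near-identical RNA5-8S5 loci 6 were named, at -1.82, -1.81 and, for 4 of them, -1.80.

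It was more positive under CITCO for CYP1A1 (1.72), CCDC144CP (0.97), SWT1 (0.81), PCK1 (0.74), ATP2B2 (0.71), HLA-K (0.71), ANKRD36 (0.66) and RMDN2-AS1 (0.55). RMDN2-AS1 had 94.7 and 95.1 CPM in KO CITCO against 16.2 and 16.3 CPM in WT CITCO cells, and 58.9 and 60.6 CPM in KO against 15.7 and 14.2 CPM in WT cells under DMSO. ATP2B2, a calcium pump, had 15.4 and 14.2 CPM in KO CITCO against 6.50 and 6.23 CPM in WT CITCO cells, and 15.8 and 14.4 CPM in KO against 11.2 and 10.7 CPM in WT cells under DMSO. CYP1A1, CCDC144CP, HLA-K, SWT1, ATP2B2 and ANKRD36 each lost the call on leaving out 5 or more of the 8 libraries. With a replicate block the calls of CCDC144CP and SWT1 were lost (limma adjusted p = 0.0517 each). CCDC144CP was also lost with a pseudocount of 0.1 (0.0531) and with total scaling (0.0524), and SWT1 when only the libraries compared were fitted (0.0570). PCK1 is the one of these 8 called in every leave-out.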

How the results depend on the processing

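Scaling every library to its total gave 8090 loci higher and 2511 lower, and 403 at least 2-fold lower. Keeping loci with 1 CPM in at least 8 libraries left 539 at least 2-fold higher. The count of differences between CITCO and DMSO was 6 with a constant prior variance, and 23 to 491 on leaving out 1 library; the other alternatives kept it at 51 to 58. Leaving out 1 library gave 7856 to 8057 calls under CITCO, 845 to 852 at least 2-fold higher and 672 to 697 at least 2-fold lower. With total scaling the sign turned for APOC3 (0.11), CTGF (0.039), CYP1A2 (0.065), CYP3A7 (0.047), FN1 (0.0086), GUSB (0.086), HLA-F (0.051), NFKBIA (0.051), NR1I2 (0.018) and SWT1 (0.14); on leaving out 1 library CYP1A2 ranged between -0.34 and 0.045. Of 273 named loci 250 kept direction and side of the threshold with total scaling. The replicate block gave 9338 calls under CITCO and 51 differences, those of CCDC144CP and SWT1 being lost among the named loci; deviations of same-numbered KO and WT libraries correlated with -0.012 (CITCO), 0.23 (DMSO) and -0.013 (PB), so the numbers were not taken as pairs. With 2 libraries per group, differences between treatments of low loci are limited by depth and spread.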

Other observations

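SERPINA2, a serpin locus beside SERPINA1, had 0.376 and 0.140 CPM in KO CITCO libraries against 0.217 and 31.5 CPM in WT CITCO libraries, and 23.4 and 0.337 CPM in KO PB libraries. It was uncalled (log2 -2.68, limma adjusted p = 0.0896), and 1 library each of WT CITCO and KO PB held nearly all of its signal in these groups. GSTA5 also varied between duplicates: it had 1.21 and 0.465 CPM in KO CITCO against 5.58 and 8.96 CPM in WT CITCO libraries, and 29.4 and 4.30 CPM in WT DMSO libraries.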
